A study of Mus musculus with 6 samples.

Results

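miR-26a and miR-26b are the guide strands of the miR-26 family, the strands that Argonaute proteins retain after Dicer has cut the precursor. Their assays were found by name in the deposited table of threshold cycles (Ct): 2 of 596 miRNA assays, both in the first block of rows, called pool A, which holds 335 miRNA assays and 5 endogenous small RNA controls of its own. The samples were bone marrow-derived macrophages of male Apoe–/– mice aged 6 to 8 weeks, grown for 7 days in DMEM-F12 with 10% FCS and 10% L929-conditioned medium. The 3 wild-type mice (WT) were LysM-Cre/Dicerwt/wt/Apoe–/– and the 3 knockout mice (KO) LysM-Cre/Dicerflox/flox/Apoe–/–, so that both groups lacked Apoe and carried Cre, and the comparison asked how strongly each miRNA depends on Dicer. LysM-Cre is active in cells of the myeloid lineage, and how many of the cultured cells had lost Dicer was not measured by these assays. In such bulk RNA, fewer cells with a full level and a lower level in every cell cannot be told apart.

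The 2 miRNAs are made from hairpins that lie within genes of the CTDSP phosphatase family and are known to be transcribed with them. Drosha frees the hairpin and Dicer then removes its loop, which in the miR-26 hairpins sets the 3′ end of the guide strand. The family is broadly expressed and is best known as a brake on cell growth. Among its reported targets is Ezh2, the methyltransferase of Polycomb repressive complex 2. No mRNA is among the assays used here, so nothing here bears on that target.

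The mature sequences are shown because they tell how alike the 2 members are; they were taken from the RefSeq miRNA table of build GRCm38.p6, where both names matched, and capitals mark the seed, bases 2 to 8, which leads target pairing.
miR-26a: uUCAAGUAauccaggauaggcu
miR-26b: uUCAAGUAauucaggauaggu
Both carry the seed UCAAGUA, and of the 1679 mature names in the table these 2 alone have it. Counted from the 5′ end, miR-26b differs from miR-26a by C11U and C21U, so that 19 of 21 compared positions are identical, and it is shorter, with 21 against 22 nt. Probe and primer sequences of the assays were not used here, so how well each assay separates the 2 miRNAs is not known.

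The hairpins are the substrates that Dicer cuts and are printed with the guide strand in capitals.
Mir26a-1: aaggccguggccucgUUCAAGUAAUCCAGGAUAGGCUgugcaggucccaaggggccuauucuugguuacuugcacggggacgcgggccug
Mir26a-2: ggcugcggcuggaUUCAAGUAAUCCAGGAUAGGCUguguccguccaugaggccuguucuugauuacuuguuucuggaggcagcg
Mir26b: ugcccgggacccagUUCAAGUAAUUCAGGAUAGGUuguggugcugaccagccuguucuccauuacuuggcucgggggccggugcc
On GRCm38.p6 Mir26a-1 lies at chr9:119031796-119031885 within Ctdspl, Mir26a-2 at chr10:126995530-126995613 within Ctdsp2 and Mir26b at chr1:74394310-74394394 within Ctdsp1, each on the plus strand. miR-26a is the product of the first 2, which give the same guide strand, so the assay of miR-26a reads both loci and cannot tell them apart. In all 3 hairpins the guide is on the 5′ arm. The stretch removed between guide and passenger strand is 17 bases long in Mir26a-1, 16 in Mir26a-2 and 15 in Mir26b. Assays of the passenger strands of these hairpins were not analysed here.

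WT samples had 307 to 309 miRNA assays below Ct 35, the value taken as the ceiling of measurement, and KO samples 219 to 290. KO replicate 1 stood apart, with the fewest detected assays and the latest controls. The mean Ct of the 5 controls of pool A was 19.1 to 21.1 in WT and 22.8, 20.3 and 19.3 in KO replicates 1, 2 and 3. It differed by 0.57 cycles between the groups (KO minus WT; exact permutation test, two-sided, p = 0.8, n = 3 per group), or by -0.44 without KO replicate 1. With 3 samples against 3 such a test cannot give a p under 0.1. The labelled cell type was set against marker miRNAs, and all 5 myeloid miRNAs were below the ceiling in all 6 samples, led by miR-223 with a mean Ct of 15.6 in WT. The 3 lymphocyte miRNAs, led by miR-342-3p (mean Ct of 20.2 in WT), were also below it in all samples. Muscle, liver and neural miRNAs were below it in 5 of 15 WT and 3 of 15 KO wells, led by miR-9 (mean Ct of 29.7 in WT), with miR-1 and miR-122 at Ct 40, the value of wells without amplification, in all 6 samples. Erythroid miRNAs were below it in 1 of 6 WT and 2 of 6 KO wells, all of them miR-451, with miR-486 at 40 throughout.

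miR-26a and miR-26b were lower in every KO sample than in every WT sample, a pattern shown by 169 of 282 tested assays (59.9%). Neither passed the threshold of the test across all assays. Relative to the controls of pool A, miR-26a was on average 4.81-fold and miR-26b 2.84-fold lower in KO. In WT both were among the most even measurements of the panel. In KO, miR-26a ranged widely between mice, and miR-26b less so.

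The Ct of miR-26a was 20.8, 20.4 and 19.0 in WT replicates 1, 2 and 3 and 26.5, 22.1 and 20.2 in KO replicates 1, 2 and 3. The Ct falls by 1 for each doubling of template, and on this raw scale the groups overlapped, since KO replicate 3 was earlier than WT replicates 1 and 2. The log2 relative abundance, which is the mean Ct of the controls minus the Ct of the assay, was 0.25, 0.13 and 0.13 for the WT samples and -3.67, -1.79 and -0.83 for the KO samples. On this scale the groups did not overlap, the gap between the lowest WT and the highest KO sample was 0.96, and KO replicate 1 was the lowest. The group means were 0.17 ± 0.07 in WT and -2.10 ± 1.45 in KO (SD, n = 3 per group). Set against the WT mean, miR-26a was 14.3-fold lower in KO replicate 1, 3.89-fold lower in replicate 2 and 2.00-fold lower in replicate 3.

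miR-26b reached threshold at Ct 22.7, 21.9 and 20.6 in the WT samples and at 26.6, 23.0 and 21.9 in the KO samples, again with overlap on the raw scale. Its log2 relative abundance was -1.65, -1.34 and -1.51 for WT and -3.73, -2.69 and -2.61 for KO. The highest KO sample was 0.95 below the lowest WT sample, KO replicate 1 was the lowest, and KO replicates 2 and 3 were close together. The means were -1.50 ± 0.16 in WT and -3.01 ± 0.62 in KO (SD, n = 3 per group). Against the WT mean miR-26b was 4.66-fold, 2.28-fold and 2.15-fold lower in KO replicates 1, 2 and 3. The efficiencies of the assays were not given, so the relative abundances of miR-26a and miR-26b do not rank the 2 miRNAs.

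**Figure D1:**
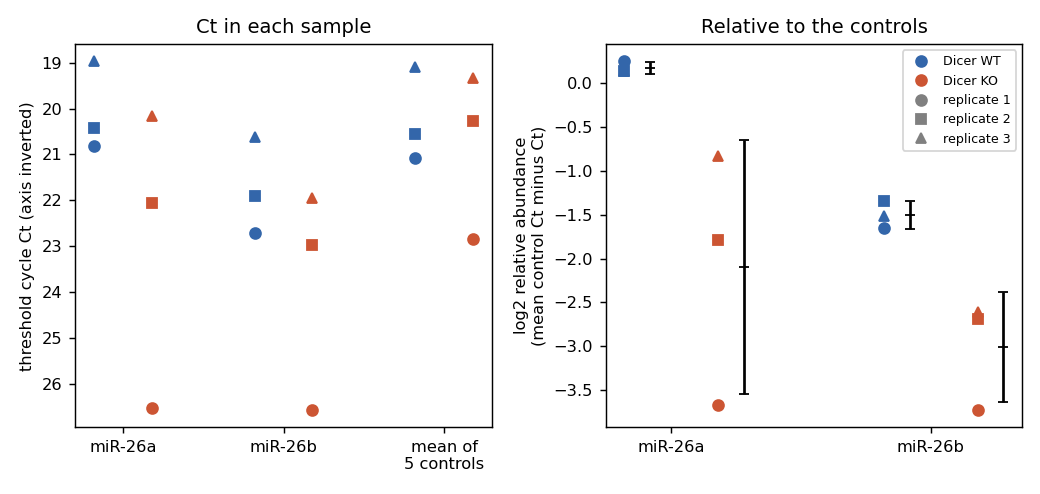
Left, Ct of miR-26a, of miR-26b and of the mean of the 5 controls of pool A in each sample (axis inverted, so that more template is higher); right, log2 relative abundance of both members, with the mean and SD of each group (n = 3) as black bars. Relative to the controls the WT samples of miR-26a lie between 0.13 and 0.25 and the KO samples between -3.67 and -0.83. Neither member's groups overlap, and in 169 of the 282 tested assays (59.9%) KO likewise lay below WT without overlap.

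Scaling by the controls narrowed the range of both groups, in proportion more so in WT than in KO. The range of miR-26a over the WT samples was 1.85 cycles in Ct and 0.11 in log2 relative abundance, and that of miR-26b 2.10 and 0.31. Over the KO samples the range was 6.35 cycles and 2.84 for miR-26a, and 4.62 cycles and 1.12 for miR-26b. Among the 201 assays measured in all 6 samples, the median SD was 0.50 in WT and 0.83 in KO; 6 had a smaller SD in WT than miR-26a (0.07) and 20 a smaller one than miR-26b (0.16). In KO 26 had a larger SD than miR-26a (1.45) and 137 a larger one than miR-26b (0.62).

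The test was limma on log2 relative abundance over the 282 assays measured in all 3 samples of at least 1 group, two-sided, with Benjamini-Hochberg adjustment and a threshold of 0.05. miR-26a differed by -2.27 ± 0.78 on the log2 scale (KO minus WT; SE, n = 3 per group; 95% confidence interval -4.12 to -0.41; limma, adjusted p = 0.0562). miR-26b differed by -1.51 ± 0.53 (SE; 95% confidence interval -2.77 to -0.24; limma, adjusted p = 0.0583). Neither is called lower, whereas 105 of the 282 tested assays (37.2%) were. KO and WT samples were likewise separated, with KO below, in 169 assays (59.9%), so that this pattern is common in the panel. The median difference over the tested assays was -1.91; 90 assays were at or below the difference of miR-26a and 180 at or below that of miR-26b. The intervals of both members contain the median.

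**Figure D2:**
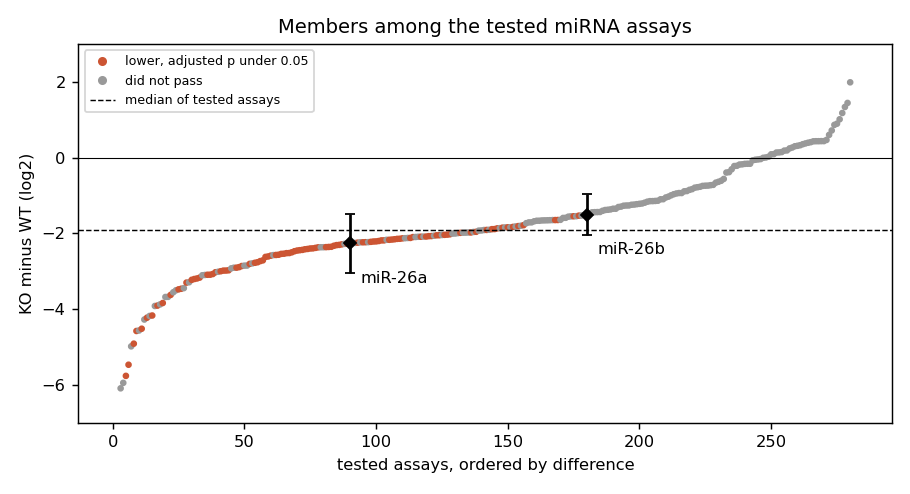
Differences of the tested assays between KO and WT (log2, vertical axis), ordered from the most negative to the most positive; red points passed the threshold as lower in KO, grey points did not pass, black diamonds are the members with their SE and the dashed line is the median of -1.91. miR-26a lies below the line and miR-26b above it, both within 1 SE; 4 assays lie outside the axis, which runs from -7 to 3.

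The adjusted p of both members lay close to the threshold and moved to either side with the processing. With the filter restricted to assays measured in all 6 samples, the adjusted p was 0.0263 for miR-26a and 0.0349 for miR-26b, beside 56.7% of assays called lower. With a ceiling of Ct 32 it was 0.0392 and 0.0443 (47.6% called lower), and with a trended and robust variance in limma 0.0357 and 0.031 (41.5%). With U6 alone as reference miR-26a passed (adjusted p = 0.0396) and miR-26b did not (0.051), again beside 41.5% called lower. Leaving out KO replicate 3 took miR-26a to -2.90 (adjusted p = 0.0363) and miR-26b to -1.71 (0.0626), with 39.3% called lower. Leaving out KO replicate 1 moved miR-26a by over 1.5 times, to -1.48 (adjusted p = 0.0532), and miR-26b to -1.15 (0.0538). Other choices raised the adjusted p. It was 0.208 for miR-26a and 0.329 for miR-26b at the same differences without a filter, 0.126 and 0.169 with the median of the controls, and 0.256 and 0.314 without a reference. Without WT replicate 1, 2 or 3 or KO replicate 2 it was 0.128, 0.151, 0.116 and 0.0942 for miR-26a and 0.125, 0.19, 0.143 and 0.0942 for miR-26b; in these 4 fits 2, 2, 2 and 3 assays of the whole panel were called lower.

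**Figure D3:**
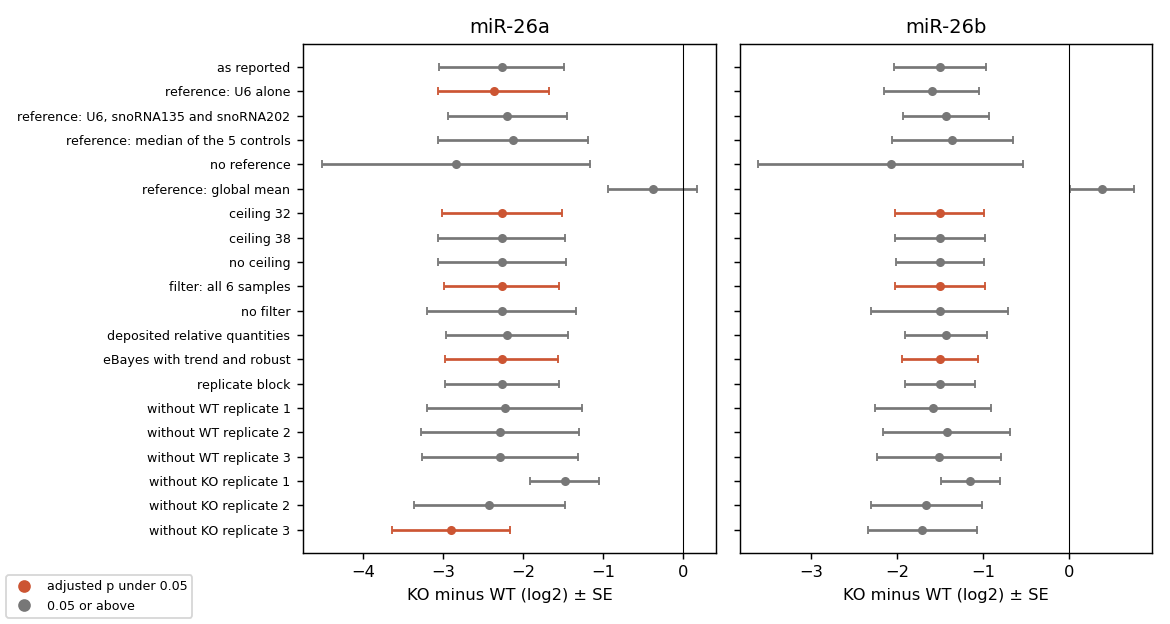
Difference of miR-26a (left) and miR-26b (right) between KO and WT on the log2 scale, with its SE, as reported and under each alternative; red points had a limma adjusted p under 0.05. The differences lie below 0 throughout, apart from miR-26b at 0.38 with the global mean as reference, and miR-26a moves from -2.27 to -1.48 without KO replicate 1.

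The size of the difference did not rest on 1 control. U6 is the spliceosomal RNA, Y1 a Ro-associated RNA, and U87, snoRNA135 and snoRNA202 are small nucleolar or Cajal body RNAs, none of them a product of Dicer. Against each control alone, miR-26a differed by between -2.38 (Y1) and -2.11 (snoRNA202), and miR-26b by between -1.62 (Y1) and -1.34 (snoRNA202). In each of these 10 settings all KO samples were below all WT samples. In the authors' deposited table of relative quantities, miR-26a was at 1.09, 0.945 and 0.968 in WT and 0.0778, 0.268 and 0.498 in KO. miR-26b was at 0.933, 1.08 and 0.987 in WT and 0.239, 0.457 and 0.463 in KO in the authors' deposited table. The fold change of KO over WT in the authors' deposited table was 0.281 for miR-26a and 0.386 for miR-26b. These values match ratios of arithmetic means, whereas the folds of the group means given above come from means of log2 values. On the log2 scale the deposited quantities gave a difference of -2.20 for miR-26a and -1.43 for miR-26b.

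Most of the panel shifted down in KO, and the members were set against that shift. The median over the tested assays was 6.05-fold, 3.34-fold and 2.38-fold below its WT mean in KO replicates 1, 2 and 3. miR-26a was further below its WT mean than this median in replicates 1 and 2 and less far in replicate 3. miR-26b was less far below in all 3 KO samples. With the global mean as reference, the mean of the miRNA assays measured in all 6 samples of the pool, miR-26a was at -0.38 (limma, adjusted p = 0.782) and miR-26b turned to 0.38 (limma, adjusted p = 0.634). Neither member was thus shown to differ from the other miRNAs of the pool.

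Since both members share pool and controls, the difference between them within a sample needs no reference. miR-26a minus miR-26b was 1.90, 1.47 and 1.64 on the log2 scale in WT and 0.05, 0.90 and 1.78 in KO replicates 1, 2 and 3. KO replicate 3 lay among the WT samples, and KO replicates 1 and 2 lay below them, so the groups overlapped. The mean was 1.67 ± 0.21 in WT and 0.91 ± 0.86 in KO (SD, n = 3 per group), a change of -0.76 or 1.70-fold (KO minus WT; exact permutation test, two-sided, p = 0.3). Without KO replicate 1 the change was -0.33, and without KO replicate 3 it was -1.19. A stronger loss of miR-26a than of miR-26b was therefore not shown.

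Other pairs of related miRNAs from a fixed list, measured in all 6 samples, give a scale for this value. For 19 of the 26 listed pairs the same double difference could be formed within a pool; its size had a median of 0.34 and ran from 0.01 for miR-146a and miR-146b to 1.70 for miR-125a-5p and miR-125b-5p. It was larger than that of the miR-26 pair in 2 pairs. The lowest value was that of miR-125a-5p minus miR-125b-5p (-1.70) and the highest that of miR-148a minus miR-148b (1.08). Such pairs share samples and several share a miRNA, so they are given as a description.

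**Figure D4:**
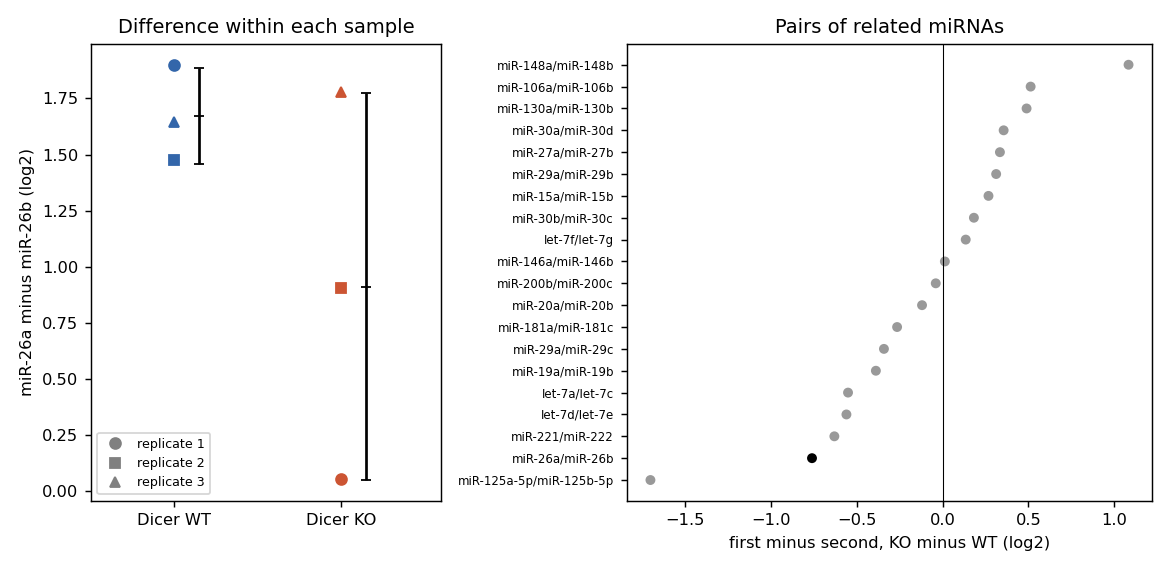
Left, log2 relative abundance of miR-26a minus that of miR-26b in each sample, with the mean and SD (n = 3 per group) as black bars; right, the change of the same quantity between KO and WT for the miR-26 pair (black) and for 19 other pairs (grey). KO replicate 3, at 1.78, lies within the WT samples, and the miR-26 pair, at -0.76, is the second lowest of the pairs shown.

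The assays most like each member over the 6 samples were not the other member. Likeness was the root mean square difference in log2 relative abundance, each assay set against its own WT mean, over the 200 other assays measured in all 6 samples. For miR-26a the nearest were miR-146a (0.24) and miR-146b (0.24), feedback inhibitors of Toll-like receptor signalling, miR-574-3p (0.24), miR-101b (0.28) and the assay listed as let-7a# (0.30). For miR-26b they were miR-29c (0.18), a regulator of collagen genes, miR-30b (0.19), miR-320 (0.20), made without Drosha, miR-532-5p (0.20) and miR-195 (0.21), of the miR-15/16 family. miR-26b was the 68th nearest to miR-26a, and miR-26a the 92nd nearest to miR-26b, at a distance of 0.74. All of these were measured in the same samples. All but miR-101b and let-7a#, which are in the second block, share the controls of pool A. Part of the likeness is therefore that of the samples.

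The mature sequences of the 2 assays nearest to miR-26a and of the assay nearest to miR-26b are shown because they carry other seeds than the members, again in capitals and from the RefSeq table.
miR-146a: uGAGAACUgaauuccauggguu
miR-146b: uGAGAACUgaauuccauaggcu
miR-29c: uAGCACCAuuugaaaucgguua
miR-146a and miR-146b share the seed GAGAACU with each other, and miR-29c has AGCACCA, while the miR-26 seed is UCAAGUA. Of the 5 assays nearest to miR-26a, miR-101b (-2.52; limma, adjusted p = 0.037) and let-7a# (-2.40; 0.034) fell, and miR-146a was at -1.98 (0.0985), miR-146b at -1.99 (0.0795) and miR-574-3p at -2.09 (0.0535). Of those nearest to miR-26b, miR-30b (-1.55; limma, adjusted p = 0.0471) and miR-532-5p (-1.65; 0.0473) fell, and miR-29c was at -1.71 (0.0521), miR-320 at -1.67 (0.0619) and miR-195 at -1.26 (0.103). With KO replicate 1 left out, 3 neighbours of each member passed; with KO replicate 3 left out, 5 of miR-26a and 0 of miR-26b passed; and with any other single sample left out, 0 of either passed in limma. Over the whole panel 105 of 282 assays (37.2%) were lower as reported. Without KO replicate 1 it was 101 of 293, and without KO replicate 3 it was 112 of 285. Without any other single sample 2 to 3 were lower, and the counts of neighbours are to be read against these. The neighbours were chosen for values like those of the member in these same 6 samples. Their differences were thus bound to lie near that of the member, and their calls are no separate support. With the replicate number as a block miR-532-5p no longer passed (limma, adjusted p = 0.0535) and miR-320 did (0.0483).

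**Figure D5:**
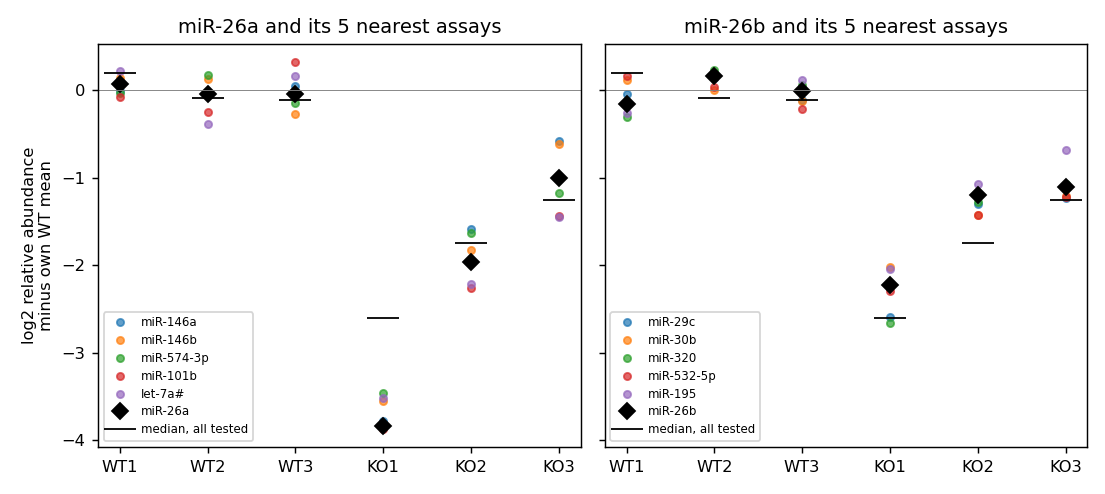
Log2 relative abundance minus the assay's own WT mean in each of the 6 samples, for miR-26a (left) and miR-26b (right) as black diamonds, their 5 nearest assays as coloured points and the median of all tested assays as black bars. miR-26a and its neighbours lie below the bar in KO replicate 1, and miR-26b lies above it in all 3 KO samples.

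Other miRNAs reported to repress Ezh2 were taken from a fixed list. Of these 5 miRNAs 4 were tested, and 3 fell, beside 37.2% of all tested assays (list median -2.48, beside -1.91 for all). miR-101a fell 5.41-fold (-2.44 ± 0.57, SE; limma, adjusted p = 0.0312) and miR-101b 5.74-fold (-2.52 ± 0.72; adjusted p = 0.037). Both target Ezh2 from another seed than miR-26. miR-138, measured in 2 of the 3 KO samples, fell at least 11.1-fold (limma, adjusted p = 0.0312). It entered the test through WT alone, where it is high; among the 3 list members measured in all samples of both groups, 2 fell with the filter of all 6 samples, beside 56.7% of assays. miR-214 was at -1.16 ± 1.87 (limma, adjusted p = 0.64), and miR-124 was below the ceiling in 1 sample, WT replicate 1, and was not tested. Without any 1 of the WT samples or without KO replicate 2, 0 members of the list passed in limma. Those fits had 2 to 3 assays lower in the whole panel. Without KO replicate 1 or 3 there were 3 members, beside 101 of 293 and 112 of 285 assays lower. With the global mean as reference 0 members passed in limma, beside 2 assays lower in the panel, and the list median was -1.07, beside -0.20 for all tested assays. With the authors' deposited relative quantities 2 of the 4 tested members passed in limma, beside 79 of 282 assays lower in the panel. There miR-101b did not pass (-2.39 ± 2.12, SE, limma, adjusted p = 0.389).

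Of the stromal and endothelial markers, miR-143, miR-145, miR-199a-3p and miR-214 varied most between the WT samples. miR-126-3p varied more between the KO samples (SD of 2.46, beside 0.50 in WT) and was not lowest in WT replicate 3. The 5 assays of this list were below the ceiling in 15 of 15 WT and 14 of 15 KO wells, led by miR-145. In limma 0 of 5 passed the test, beside 37.2% of all tested assays called lower. The list median was -1.16, but -2.86 without WT replicate 3. It was -0.03 and -0.02 without WT replicates 1 and 2, so it rests on WT replicate 3. Their summed log2 level ran from -6.46 to -0.69 in WT and from -4.37 to -3.26 in KO, and WT replicate 3 was the low sample, with a Ct of 27.9 for miR-145 beside 22.6 and 22.8 in WT replicates 1 and 2. Over the same WT samples miR-26a varied by 0.11 and miR-26b by 0.31. In KO replicates 1, 2 and 3 the log2 relative abundance of miR-145 was -5.12, -5.09 and -4.23, that of miR-214 -7.56, -6.65 and -5.27 and that of miR-126-3p, at the ceiling in replicate 1, -12.2, -8.41 and -7.52, in the same order of samples as both members. miR-199a-3p had this order too, and miR-143 did not (-6.33, -6.89 and -6.19). The median of all tested assays was -8.20, -7.34 and -6.86 in KO replicates 1, 2 and 3. The order is thus that of the panel and is not particular to these markers. The summed myeloid level was 4.82 to 5.72 in WT and 2.99 to 3.85 in KO, and 3 of its 5 miRNAs fell, beside 37.2% of all tested assays. The lymphocyte level was -0.03 to 0.50 in WT and -3.87 to -0.98 in KO, and 2 of 3 fell. Without any 1 WT sample, without KO replicate 2 or with the global mean 0 of either list passed in limma. In these fits 2 to 3 assays of the panel were lower. Without KO replicate 1 there were 2 myeloid and 0 lymphocyte miRNAs, beside 101 of 293 assays lower. Without KO replicate 3 there were 3 and 1, beside 112 of 285. With the replicate block there were 4 and 1, beside 118 of 282 assays lower. There miR-142-5p was gained (limma, adjusted p = 0.0483) and miR-342-3p lost (0.0547). In the list of muscle, liver and neural miRNAs 1 of 5 was tested, miR-9, at least 4.01-fold lower with 2 KO samples measured, which did not pass (limma, adjusted p = 0.0564), and of the erythroid list 0 were tested. The part of these markers in the difference of miR-26a and miR-26b was not tested.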

How the data were processed

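miRNAs were assayed by TaqMan RT-PCR in macrophages of 3 WT and 3 KO mice, after mirVana isolation, reverse transcription and preamplification, per the labels' protocols; the sources used here name no instrument or cycle software. Deposited by the authors were Ct scores, with wells without amplification at 40, relative quantities as a ratio to WT, and a fold table. For the members, log2 of the deposited ratio equalled the value scaled by U6, snoRNA135 and snoRNA202 to within 2.08e-09. Here Ct values at or above 35 were set to 35 and scaled by the mean of the 5 controls of the block. Ct values give no counts, so precision is limited by having 3 samples per group.

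The fit used limma 3.58.1 in R 4.3.3 over 282 miRNA assays, with genotype alone, and was tested on simulated data; sequences and figures used Python 3.11.15 and matplotlib 3.10.9. Samples were not paired in the reported results, and equal replicate numbers were treated as pairs only in the alternative with the replicate block. Over 201 assays, the deviations of WT and KO samples correlated at 0.48, 0.59 and 0.29 for equal numbers and at -0.43 to -0.09 for unlike numbers. With the mean of each group removed, positive values for equal numbers push those for unlike numbers down, so part of this contrast is built in. No label names a shared batch, so the pairing was not shown independently.

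Members, lists and pairs were chosen with earlier results of these data known. Named were the members, the 5 assays nearest to each, members of the Ezh2 list past the threshold and that with the largest p, the extreme pairs, and the member of each cell type list with the lowest Ct. The list of passenger strands of the miR-26 hairpins had 0 assays. Another fixed list is not reported here. Of 12 assay names 9 matched the RefSeq miRNA table. Alternatives covered reference, ceiling, filter, deposited ratios, variance model, block and each sample left out.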

Additional observations from a re-analysis of the deposited data

How the results depend on the processing

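miR-26a was lower in KO under all 19 alternatives (-2.90 to -0.38) and miR-26b under 18 of 19, the exception being 0.38 with the global mean. The -0.38 of miR-26a was also with the global mean (limma, adjusted p = 0.782). All alternatives drew on the same 6 samples, and 247 of the 282 tested assays had a negative difference as reported. Both passed the threshold with a ceiling of 32, with assays measured in all samples and with a trended robust variance. The differences there stayed at -2.27 and -1.51. Only miR-26a passed with U6 alone (-2.36) and without KO replicate 3 (-2.90). Leaving out 1 sample gave -2.90 to -1.48 for miR-26a, -1.71 to -1.15 for miR-26b, -1.19 to -0.33 for the difference between them, -0.44 to 1.31 for the control Ct and -2.06 to -1.49 for the median of all assays. With the replicate block the values of the members were -2.27 (limma, adjusted p = 0.066) and -1.51 (0.0506); the difference between the members stayed at -0.76, and the block changed no call of the members. Among the other named assays it changed that of miR-320, miR-532-5p, miR-142-5p and miR-342-3p. The number of assays past the threshold, 106 as reported, was 5 with the median of the controls, 2 without a reference, 3 with the global mean, 3 without a filter and 3 to 115 with 1 sample left out. The median over all assays was -0.20 with the global mean and 0.27 without a filter, where undetected assays enter.

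With the global mean miR-29c (0.18), miR-30b (0.34), miR-320 (0.22), miR-532-5p (0.24), miR-195 (0.62), miR-214 (0.72), miR-142-5p (0.45), miR-150 (0.70), miR-143 (1.15), miR-145 (1.25) and miR-199a-3p (0.68) turned to a positive difference. Without WT replicate 1 or 2 miR-143 turned to 0.56 and 0.05, and miR-145 to 0.69 and 0.33; over all samples left out in turn they ran from -2.83 to 0.56 and from -2.94 to 0.69. A change of reference moved all differences within a pool by the same amount. In WT replicates 1, 2 and 3 the Ct was 24.2, 24.7 and 29.0 for miR-143 and 22.6, 22.8 and 27.9 for miR-145. Why WT replicate 3 was late for these assays was not tested. Of 472 values of 25 other named assays, 325 kept direction and call, 107 no longer passed and 25 newly passed.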
